A study of Schizosaccharomyces pombe with 36 samples.

Results

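Deletion of taz1 was compared with wild type in fission yeast (Schizosaccharomyces pombe) by polymerase usage sequencing, in 12 of the 36 libraries of the study. The 4 libraries titled as taz were taken as taz1 deletion, 2 for DNA polymerase delta and 2 for DNA polymerase epsilon, and all 8 libraries titled as wild type at 25 °C or 34 °C as the control, again 2 per temperature and polymerase. All 12 came from h- strains listed with rnh201-RED:kan, ade6-704, leu1-32 and ura4-D18. Pol delta strains also carried cdc6-L591G and Pol epsilon strains cdc20-M630F, and the taz1 deletion strains added taz1::NAT. The labels give no temperature for taz1 deletion, so it was set against the mean of both wild type temperatures. Each genotype and polymerase is 1 strain in the labels, so the replicates may not be independent, and p-values speak only for the scatter among these samples. They need not be the same DNA either. Wild type replicates differed over ura4, and taz1 deletion replicates differed in the mating-type region, as given below.

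Taz1 is the shelterin protein that binds double-stranded telomere repeats in this yeast. It also binds telomere-like repeats beside some internal origins that fire late, and it recruits Rif1, which restrains origin firing through protein phosphatase 1. Rif1 also acts at other late origins through a sequence of its own, known as the Rif1 consensus. At a fork, the leading strand is mostly the work of Pol epsilon and the lagging strand that of Pol delta. The mutant polymerases leave ribonucleotides in the DNA they make, and where replication starts the strand that holds them switches.

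Both kinds of sequence were searched on both strands of the RefSeq assembly ASM294v3. The Rif1 consensus had 57 matches in the genome. Of the 521 initiation sites examined, 10 (1.92%) lay within 1 kb of one, against 0.771% of all bins of 300 bp. Pairs of GGTTAC whose starts lay within 200 bp numbered 208, and 8 sites (1.54%) lay within 1 kb of a pair, against 2.79% of all bins. The letters of the Rif1 consensus came from general knowledge of this yeast and not from the study's files, and its matches are shown in capitals. A match describes these letters only and is not a measured binding site. The 3 sites with a consensus and the largest step change with rif1 loss (described further on) are shown first, on the strand that reads the consensus, with the consensus in capitals. They lie in annotated long noncoding RNAs beside yea4 (chrII:1080034-1080084, minus strand), dpe2 (chrIII:2309752-2309802, minus strand) and klp3 (chrI:4706071-4706121, plus strand).
yea4: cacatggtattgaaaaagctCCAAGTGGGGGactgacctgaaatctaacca
dpe2: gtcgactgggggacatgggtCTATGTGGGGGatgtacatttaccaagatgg
klp3: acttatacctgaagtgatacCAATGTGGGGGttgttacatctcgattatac

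The 3 telomere-like pairs beside the sites that moved most among those with a pair follow on the plus strand, with GGTTAC or its complement GTAACC in capitals. They lie beside coa6 (chrII:2338741-2338912) and ski7 (chrI:5321574-5321634), both in long noncoding RNAs, and in the transcript of SPAC806.06C outside its coding exons (chrI:244390-244419).
coa6: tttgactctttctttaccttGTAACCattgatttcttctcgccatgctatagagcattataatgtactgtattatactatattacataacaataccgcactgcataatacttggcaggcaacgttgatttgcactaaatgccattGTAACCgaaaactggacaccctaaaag
ski7: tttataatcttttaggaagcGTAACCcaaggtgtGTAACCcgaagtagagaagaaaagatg
SPAC806.06C: acaaaacaGTAACCcaGGTTACtgttgttt

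Over the taz1 gene (SPAC16A10.07C, chromosome I, 3091021 to 3093260) all 4 taz1 deletion libraries held 0 ends. That count allows at most 0.00087 to 0.0025 times the median bin of the library, taking 3 ends as the limit. The wild type libraries held 0.84 to 1.15 times the median bin there. The stretch from 3091201 to 3093600, 8 bins long, was the only run of 4 or more bins with lost ends in all 4 libraries, and no run was gained. Over rif1 the taz1 deletion libraries held 1.09 to 1.16 times the median bin and wild type 1.02 to 1.20. Over rnh201 the taz1 deletion libraries held 0.048 to 0.11 and wild type 0.089 to 0.24 times the median bin, and over ade6 and leu1 the ranges of both groups overlapped. The ura4 gene was at 0 in all 4 taz1 deletion libraries. Wild type 25 °C replicate 2 held 1.27 times the median bin at ura4 for Pol delta and 0.295 for Pol epsilon, although its label lists ura4-D18, a deletion, so results were also computed without it. Wild type 34 °C replicate 2 held 0.103 (43 ends) and 0.035 (27 ends), and the replicate 1 libraries 0 or 1 end. Results without each of these libraries were also computed.

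The strand signal on which initiation and fork direction rest was weak in every taz1 deletion library. Totals were 20995676 and 9191237 ends for Pol delta replicates 1 and 2 and 25704364 and 8666973 for Pol epsilon. Wild type held 10082821 to 24104591 for Pol delta and 8068852 to 18125108 for Pol epsilon, so taz1 deletion Pol delta replicate 2 had fewer ends than every wild type library of its polymerase, and the other 3 did not. The median bin of taz1 deletion Pol delta replicate 2 held 215 ends, within the wild type Pol delta range of 208 to 480. The part of depth in the strand signal was not tested. The SD of strand polarity, the log2 ratio of both strands over windows of 10 bins, was 0.50 and 0.27 for Pol delta and 0.43 and 0.57 for Pol epsilon. Every wild type library was higher, from 1.08 to 1.77. Across windows the polarity correlated with the other wild type libraries of the same polymerase at r = 0.826 and 0.186 for Pol delta and 0.729 and 0.913 for Pol epsilon, and at 0.845 to 0.976 among the wild type libraries. Windows share base composition, so these values only describe the libraries.

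**Figure D1:**
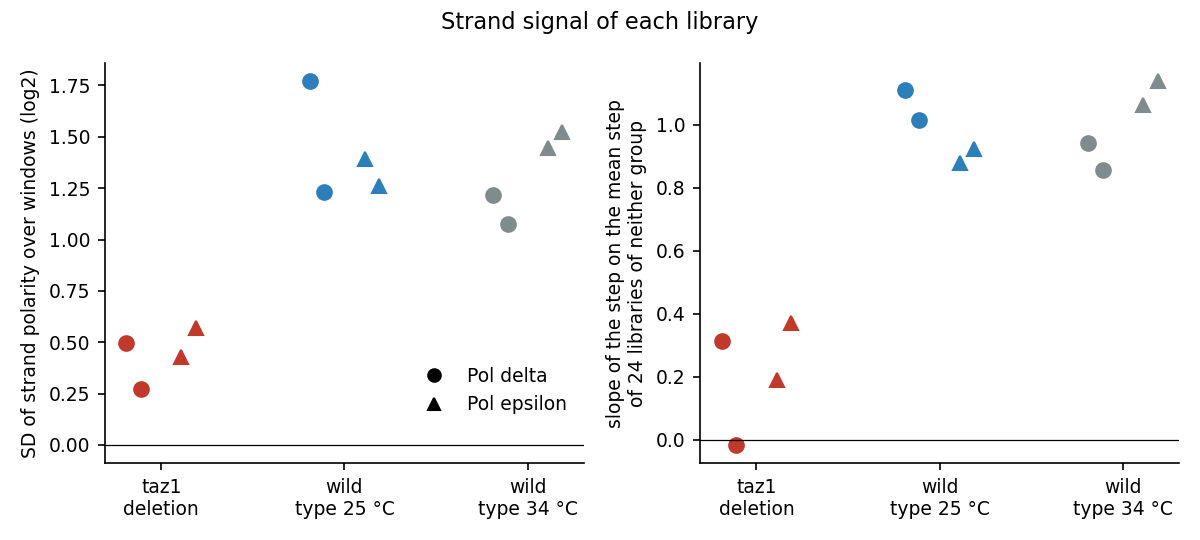
Strand signal of the 12 libraries by group: the SD of strand polarity over windows (left, log2) and the slope of the initiation step on the mean step of 24 libraries of neither group (right), 1 point per library, circles for Pol delta and triangles for Pol epsilon. All taz1 deletion points lie below all wild type points, and Pol delta replicate 2 has a slope of -0.02.

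Initiation was measured at 521 sites as a step: the log2 ratio between the ends that forks leaving the site would give and those that forks arriving at it would give, over 10 bins on each side. Sites were the local maxima of the mean step over the 32 libraries other than taz1 deletion, above 0.36 log2. Wild type took part in choosing them and taz1 deletion did not. With counts as deposited and no correction for polarity, the step fell in taz1 deletion at 385 sites for Pol delta (73.9% of sites tested) and at 332 for Pol epsilon (63.7%), and rose at 0 for either (edgeR quasi-likelihood test, adjusted p 0.05 over all sites). Without taz1 deletion Pol delta replicate 2 the Pol delta count was 236, and without Pol epsilon replicate 1 the Pol epsilon count was 159. Median changes over all 521 sites were -0.93 for Pol delta and -0.80 for Pol epsilon. DESeq2, whose size factors centre each column, called 250 sites for Pol delta, of which 107 were above and 143 below 0, and 224 for Pol epsilon, of which 103 were above and 121 below.

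At the site beside trx2 (chromosome II, 2319001), a mitochondrial thioredoxin gene, the step of the taz1 deletion libraries was 0.46 and -0.46 for Pol delta and 0.46 and 0.93 for Pol epsilon. The 4 wild type Pol delta libraries gave 2.10, 1.95, 1.86 and 1.82, and the 4 Pol epsilon libraries 2.35, 2.35, 2.43 and 2.90. All 4 taz1 deletion values lay below every wild type value. At ars1, the long-studied origin beside hus5 (chromosome I, 1095901), the SUMO-conjugating enzyme gene, taz1 deletion gave 0.31 and -0.05 for Pol delta and 0.46 and 0.70 for Pol epsilon. Wild type gave 1.06 to 1.64 and 1.47 to 1.97, with no overlap in either polymerase. At the ars3002 cluster beside ura4, the site beside SPCC330.07C (chromosome III, 123301) gave 0.38 and -0.28 for Pol delta and 0.33 and 0.76 for Pol epsilon, below the wild type ranges of 1.26 to 2.25 and 1.10 to 1.95. The site beside tam14 (chromosome III, 114301) was weak in wild type and overlapped, with a range of 0.16 to 1.26 for Pol delta.

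Once each step was divided by the polarity SD of its library, sites passed in Pol delta alone, and their count depended on single libraries. The scaled step fell at 168 sites for Pol delta (32.2%; limma, adjusted p 0.05) and rose at 0, with a median of -0.86 over all sites. For Pol epsilon 0 sites passed (49 at an unadjusted p of 0.05) and the median was -0.13. Without taz1 deletion Pol delta replicate 2, 0 Pol delta sites passed, and without replicate 1 the count was 337. It was 0 and 28 without wild type 34 °C Pol delta replicates 2 and 1, and 35 without wild type 25 °C Pol delta replicate 2. Of the sites past the test, 85 were below 0 in both polymerases and 0 above. The 12 largest of these by the mean of both lay beside trx2, mnl1, smg1, SPAC31G5.21, ham1, vps60, clr3, cut1, msm1, ctr5, coq11 and SPCC24B10.20. At trx2 the scaled change was -2.49 for Pol delta (SE 0.74, adjusted p 0.033) and -0.62 for Pol epsilon (SE 0.74, adjusted p 0.80). At mnl1 (chromosome I, 4088101) it was -1.89 (SE 0.47, adjusted p 0.023) and -0.95 (SE 0.47, adjusted p 0.57). At hus5 it was -1.09 for Pol delta (SE 0.32, adjusted p 0.032) and -0.15 for Pol epsilon. Of the 168 sites that fell, 104 were among the 174 sites with the highest step in the stn1-226 libraries, which are in neither group, 45 among the middle 173 and 19 among the lowest 174. Taz1 deletion Pol delta replicate 2 had a median step of -0.05 over all sites, against 0.88 to 1.38 in wild type Pol delta. A library with almost no step lowers the mean most where steps are high, so these counts cannot show that strong sites changed more. The 5 largest changes above 0 lay beside SPAC17A2.11, clg1, pas1, gap1 and coa6, and did not pass in either polymerase.

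Base composition moved with the steps as well. The step of each library was regressed, over all positions, on the mean step of the 24 libraries of neither group and on 2 base skews, T minus A and G minus C. The slope on the mean step was 0.32 for taz1 deletion Pol delta replicate 1, 0.19 and 0.37 for the Pol epsilon replicates and 0.86 to 1.14 in wild type, but -0.02 for Pol delta replicate 2. Over positions, the fitted fork term had an SD of 0.0077 to 0.17 in taz1 deletion and 0.39 to 0.52 in wild type, and the G minus C term 0.076 to 0.24 and 0.13 to 0.32. The T minus A term had an SD of 0.11 to 0.13 in taz1 deletion. In wild type 25 °C replicate 1 it was 0.68 for Pol delta and 0.62 for Pol epsilon, apart from the other 6 wild type libraries at 0.0036 to 0.24. In the adjusted step the skew terms were subtracted and the rest was divided by the slope, and Pol delta replicate 2 was left out because its slope was near 0. This measure was chosen after seeing the data. It leaves 3 taz1 deletion libraries, 1 Pol delta and 2 Pol epsilon, and 8 wild type libraries. The values below are means of both polymerases. Weights in limma were set by the spread of each genotype group and not of each library. They were 0.27 for each taz1 deletion library and 1.64 for each wild type library. With these weights 0 of 521 sites passed (24 at an unadjusted p of 0.05, 18 above and 6 below 0), and the lowest adjusted p was 0.10. The count was 102 without taz1 deletion Pol epsilon replicate 1 and 41 without replicate 2, when the other was left alone with Pol delta replicate 1. Without wild type 25 °C replicate 1 of either polymerase the count stayed at 0. With equal weights 19 sites passed (3.65%), of which 17 rose (3.26%) and 2 fell (0.384%). On simulated data that fit called unchanged sites well above the rate its threshold allows, so its calls are not used here. Adjusted changes of Pol delta and Pol epsilon correlated at r = -0.20 and rho = -0.25 across the 521 sites, so a change in 1 polymerase was not in general repeated in the other.

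At 8 sites (1.54%) all 3 taz1 deletion libraries lay above every wild type library, and at 16 (3.07%) below. The sites named in this and the next paragraph apart from coa6 and gap1 were chosen after their values were seen. The site beside coa6 (chromosome II, 2339101), a cytochrome c oxidase assembly gene, had an adjusted step of 0.95 for Pol delta and of 1.47 and 1.04 for Pol epsilon in taz1 deletion. The wild type values there were -0.02, 0.09, 0.02 and -0.14 for Pol delta and 0.37, 0.41, 0.24 and 0.27 for Pol epsilon. Both polymerases were apart from wild type, and the change was 0.95 (SE 0.21, adjusted p 0.10 with weights). Before adjustment the steps at coa6 were 0.41, 0.15 and 0.27 in these taz1 deletion libraries and -0.35 to 0.70 in wild type, which overlap.

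Of the 521 adjusted changes, the largest above 0 was beside clr4 (chromosome II, 453901), the histone H3 lysine 9 methyltransferase gene. Taz1 deletion gave 1.47 for Pol delta and 2.22 and 2.58 for Pol epsilon. Wild type gave 0.33, 0.53, 0.32 and 0.24 for Pol delta and 0.58, 1.02, 0.77 and 0.98 for Pol epsilon, a change of 1.34 (SE 0.26, adjusted p 0.10). Next came rpa12 (chromosome III, 1039501), a subunit gene of RNA polymerase I, at 1.05 (SE 0.23), and gap1 (chromosome II, 948601), a Ras GTPase-activating protein gene, at 0.96 (SE 0.20). At rpa12 the taz1 deletion libraries gave 1.76, 1.44 and 2.03, all above the wild type range of 0.12 to 1.12. At gap1 they gave 1.60, 1.41 and 1.37 against 0.14 to 0.82. Neither these nor cnp3 (chromosome II, 4128901; 1.16, 1.23 and 1.26 against 0.17 to 0.40), the gene of the kinetochore protein CENP-C, overlapped with wild type, and none passed the weighted test. Beside cnp3 the change was 0.91 (SE 0.21).

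The sites were then set against libraries labelled stn1-226 rif1 deletion compared with stn1-226, both temperatures averaged. These libraries are in neither group here, but they took part in choosing the 521 sites and in the mean step by which the taz1 deletion steps were adjusted. Those labelled as rif1 deletion in stn1-226 held 1.02 to 1.15 times the median bin over rif1, which goes against their label, so the change is called labelled rif1 loss. These strains carried the temperature-sensitive stn1-226 allele and another rnh201 marker. In that comparison 51 sites passed (9.79%), of which 36 rose (6.91%) and 15 fell (2.88%). Of the 36, 9 lay within 1 kb of a Rif1 consensus and 27 did not. In the libraries labelled rif1 deletion with no stn1 allele, the median step was 1.52 over the 9 and 1.51 over the 27. The split by consensus was chosen after seeing the data.

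In taz1 deletion the adjusted change was above 0 at 19 of the 27 sites without a consensus (70.4%) and at 6 of the 9 with one (66.7%), against 167 of all 521 (32.1%). In the adjusted measure the lists differed in size of change: the median was 0.49 over the 27 and 0.03 over the 9, against -0.09 over all sites. This difference was not tested, and the other measures did not share it. Scaled medians of the 27 and the 9 were -0.40 and -0.25 for Pol delta and 0.22 and 0.25 for Pol epsilon. Unscaled they were -0.25 and 0.13 for Pol delta and -0.62 and -0.19 for Pol epsilon. Of the 27, 7 fell unscaled for Pol delta and 16 for Pol epsilon, against 385 and 332 of all 521, and 0 rose. With 5 bins on each side in place of 10 the median of the 27 was 0.23. By library, the median of the 27 was 0.56 for Pol delta and 0.35 and 0.44 for Pol epsilon, that of the 9 was 0.14, 0.17 and 0.10, and that of all sites -0.16, -0.00 and -0.01. Both lists lay above all sites in each library. With labelled rif1 loss the same 27 sites had a median change of 0.83. Besides clr4, rpa12, gap1 and coa6, the 27 include opi10 (chromosome II, 2265601), with an adjusted change of 0.93 (SE 0.28) in taz1 deletion. It was 0.77 at prl46, 0.75 at ski7, 0.74 at erf2, 0.72 at erv2, 0.71 at qcr6, 0.66 at arv1 and 0.52 at cuf1. These sites were chosen after their values were seen, and none passed the weighted test. Some of the 27 differed between the comparisons: SPBC3B8.08 and pas1 had changes of 1.93 and 1.64 with labelled rif1 loss but of 0.08 and 0.22 in taz1 deletion. The site beside SPBC3B8.08 lies 1123 bp from a Rif1 consensus, just outside the limit of 1 kb.

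Over the 9 consensus sites (yea4, dpe2, klp3, mug114, ubc1, erg1, SPAC23H4.05C, SPAC25A8.03C and nif1) the median change was 0.03 in taz1 deletion and 1.72 with labelled rif1 loss. The sign of the first depended on the libraries used. It was 0.10 without taz1 deletion Pol epsilon replicate 1 and -0.08 without replicate 2, and -0.04 (3 above 0) against wild type 25 °C alone and 0.09 (7 above 0) against 34 °C. Their changes in taz1 deletion ran from -0.25 to 0.33, with 6 above 0, and none of the 9 had all 3 libraries above wild type. At yea4 the adjusted step was 0.17 for Pol delta and -0.03 and 1.09 for Pol epsilon in taz1 deletion. Wild type gave -0.29, 0.12, 0.01 and -0.29 for Pol delta and 0.80, 0.83, 0.65 and 0.77 for Pol epsilon. The groups overlap at yea4, with a change of 0.03 (SE 0.29) against 2.04 with labelled rif1 loss. At dpe2 the 2 changes were 0.17 (SE 0.31) and 1.93, and at klp3 0.03 (SE 0.22) and 1.83. At mug114, ubc1 and erg1 the taz1 deletion changes were -0.05, 0.15 and -0.03. The wild type levels of the 2 lists also differed: the median adjusted step of the consensus sites was -0.25 to -0.11 for Pol delta and 0.13 to 0.60 for Pol epsilon, and that of the other 27 was 0.24 to 0.52 and 0.99 to 1.18. Whether the starting level bears on the difference was not tested.

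None of the 15 sites that fell with labelled rif1 loss passed the test in taz1 deletion. Their median adjusted change was -0.27, with 2 above 0, and it was -0.29 for Pol delta and -0.06 for Pol epsilon. In Pol epsilon replicate 1 alone, 7 of the 15 were above 0. The 470 sites not called with labelled rif1 loss had -0.10, with 140 above 0. At scl1 (chromosome II, 957301), a proteasome subunit gene, the taz1 deletion libraries gave 1.34, 1.23 and 0.46, all below the wild type range of 1.41 to 1.98. The change was -0.64 (SE 0.26, adjusted p 0.82), against -1.0 with labelled rif1 loss. At rpc1, the gene of the largest RNA polymerase III subunit, it was -0.28 (SE 0.35). Across the 521 sites the changes of both comparisons correlated at r = 0.44 and rho = 0.34. Sites share their libraries and base composition, so this is a description.

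**Figure D2:**
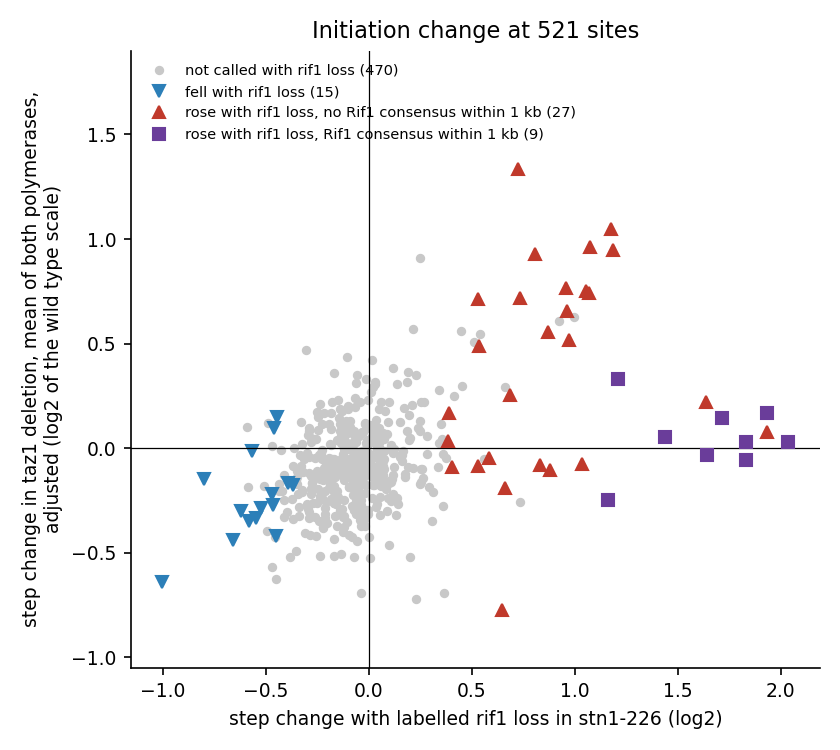
Change of the initiation step with labelled rif1 loss in stn1-226 (x axis, log2) and in taz1 deletion (y axis, adjusted log2, mean of both polymerases), 1 point per site. The 9 sites with a Rif1 consensus lie far to the right and between -0.25 and 0.33 on the y axis, 6 of them above 0, and 19 of the 27 without one lie above 0.

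**Figure D3:**
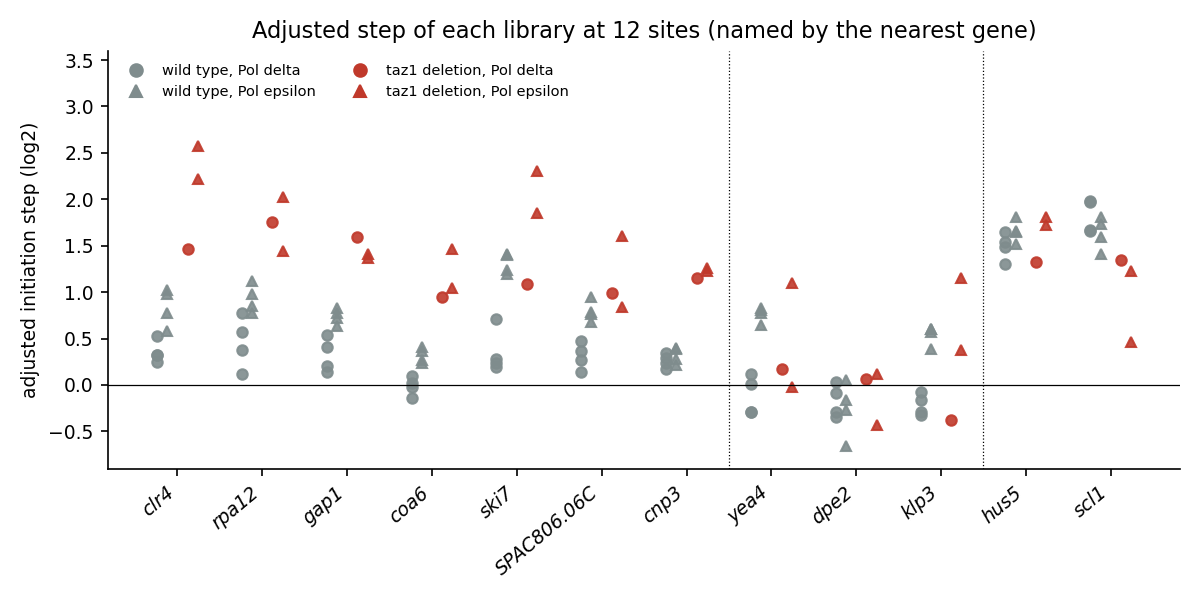
Adjusted initiation step (log2) of each library at 12 sites named by the nearest gene, grey for wild type and red for taz1 deletion, circles for Pol delta and triangles for Pol epsilon. Dotted lines separate 7 sites that were high in taz1 deletion, 3 with a Rif1 consensus, and hus5 with scl1; at clr4, rpa12, gap1, coa6 and cnp3 all red points lie above all grey points, at yea4, klp3 and hus5 they overlap, and at scl1 they lie below.

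Of the 8 sites beside telomere-like pairs, 7 had an adjusted change above 0, and the median was 0.23, against -0.09 over all sites. Scaled to polarity, their median was -0.71 for Pol delta and 0.18 for Pol epsilon, against -0.86 and -0.13 over all sites. Of the 8, 2 fell in the scaled Pol delta test, against 168 of all 521. Unscaled, 3 fell for Pol delta and 6 for Pol epsilon, against 385 and 332 of all 521. None of the 8 rose in these tests. Beside ski7 (chromosome I, 5322001), a gene of messenger RNA decay, the adjusted step in taz1 deletion was 1.09 for Pol delta and 2.31 and 1.85 for Pol epsilon. Wild type gave 0.24, 0.72, 0.19 and 0.28 for Pol delta and 1.41, 1.40, 1.19 and 1.24 for Pol epsilon, so each polymerase was above its own wild type range (change 0.75, SE 0.25, adjusted p 0.47). Beside SPAC806.06C (chromosome I, 243901) taz1 deletion gave 0.99, 1.61 and 0.84 and wild type 0.14 to 0.95, with a change of 0.56 (SE 0.23, adjusted p 0.82). Without Pol epsilon replicate 1 this change was 0.36. Changes at the others were 0.33 at SPAC25A8.03C, which also has a Rif1 consensus, 0.13 at oxa101, 0.06 at mal3, 0.04 at hry1 and -0.02 at jmj1. The longer motif GGTTACA gave 37 pairs in the genome and 1 site, coa6. With labelled rif1 loss the 8 sites had a median change of 0.61.

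Lists by position were near the median of all sites. The 16 sites 50 to 100 kb from the ends of chromosomes I and II had a median adjusted change of -0.04, the 13 at 100 to 150 kb -0.08, and the 3 at the ends of chromosome III -0.05. The 26 sites within 50 kb of a centromere had -0.12 and the 51 within 1 kb of a tRNA gene -0.06. In the lowest, middle and highest sites by their step in stn1-226, the medians were -0.04, -0.05 and -0.18.

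Fork direction, a sum over more ends than a step, was measured in 249 blocks of up to 50 kb as the log2 ratio of ends labelled by forks moving away from the centromere to ends labelled by forks moving toward it, and adjusted in the same way as the steps, also after seeing the data. Tested as the mean of both polymerases, 21 blocks passed in taz1 deletion (8.43%, limma with weights, adjusted p 0.05), of which 11 rose (4.42%) and 10 fell (4.02%). In 19 of the 21 all 3 taz1 deletion libraries lay beyond every wild type library, against 31 of all 249 blocks (12.4%). The 21 were called on these same values, so this count describes them and adds no support to the calls. The count was 73 without taz1 deletion Pol epsilon replicate 1, 54 without replicate 2 and 14 without wild type 25 °C Pol epsilon replicate 2. The counts 73 and 54 come from fits with 1 taz1 deletion library per polymerase and rest on wild type scatter alone. Most called blocks lay beside the 27 sites without a consensus: 17 of 21 (81.0%) were within 25 kb of one, against 51 of all 249 blocks (20.5%). In 16 of the 17 the change was toward forks leaving that site, against 32 of the 51. Within 25 kb of the 9 consensus sites lay 18 blocks (7.23%), of which 1 was called, and its change was not away from the site. These lists were compared by counts only, and neighbouring blocks are not independent.

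At 3 telomere-like pairs the adjusted change, a mean of both polymerases, had opposite signs on both sides of the site. Direction scaled to polarity, which keeps taz1 deletion Pol delta replicate 2, did not show this in Pol delta at each pair. Its Pol delta changes were 0.73 and 0.10 around SPAC806.06C, -0.02 and 0.33 around ski7 and -0.02 and -0.06 around coa6. For Pol epsilon they were 0.24 and -0.46, -0.27 and 0.29, and -0.29 and 0.21. The adjusted values follow. Left of SPAC806.06C (chromosome I, 200101 to 249900) the adjusted direction was -0.37, -0.39 and -0.33 in taz1 deletion. Wild type gave -0.86, -0.85, -0.91 and -0.94 for Pol delta and -0.71, -0.68, -0.62 and -0.56 for Pol epsilon. Forks toward the left end of the chromosome were thus more frequent, by 0.41 (SE 0.06, adjusted p 0.0043). Right of it (249901 to 300000) taz1 deletion gave -0.48, -0.49 and -0.50 and wild type -0.30 to 0.05, a change of -0.41 (SE 0.09, adjusted p 0.027).

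On the right arm the blocks beside ski7 changed by -0.44 (SE 0.08, adjusted p 0.010) on the centromere side (chromosome I, 5279101 to 5329200) and by 0.33 (SE 0.07, adjusted p 0.025) on the side of the chromosome end (5329201 to 5379000). Taz1 deletion gave -0.89, -0.64 and -0.72 in the first, below the wild type range of -0.49 to -0.24. In the second it gave 0.24, -0.13 and 0.08, above -0.27 to -0.16. The blocks beside coa6 changed by -0.31 (SE 0.08, adjusted p 0.036; chromosome II, 2289901 to 2339700) and by 0.33 (SE 0.07, adjusted p 0.015; 2339701 to 2389800), and neither overlapped with wild type. The first of these lost its call in 5 of the alternatives, where the change was -0.31 to -0.26.

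Sites without such a pair showed the same arrangement in the adjusted direction. Scaled to polarity, the changes around opi10 were -0.54 and 0.28 for Pol delta and -0.74 and -0.03 for Pol epsilon. The adjusted values follow. Around opi10 the blocks changed by -0.69 (SE 0.12, adjusted p 0.0060) and 0.58 (SE 0.15, adjusted p 0.041), and around erf2, a palmitoyltransferase gene, by -0.36 (SE 0.08, adjusted p 0.025) and 0.49 (SE 0.07, adjusted p 0.0043). On 1 side only, the block beside gap1 changed by 0.41, that beside clr4 by -0.30, beside erv2 by -0.30, beside cuf1 by -0.32, beside arv1 by 0.28 and beside qcr6 by 0.25. A pair of called blocks also met at 650101 on chromosome I, beside pis1, with changes of 0.50 (SE 0.07, adjusted p 0.0043) and -0.55 (SE 0.08, adjusted p 0.0043). The pis1 site is not among the 27, and it was chosen after its values were seen.

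**Figure D4:**
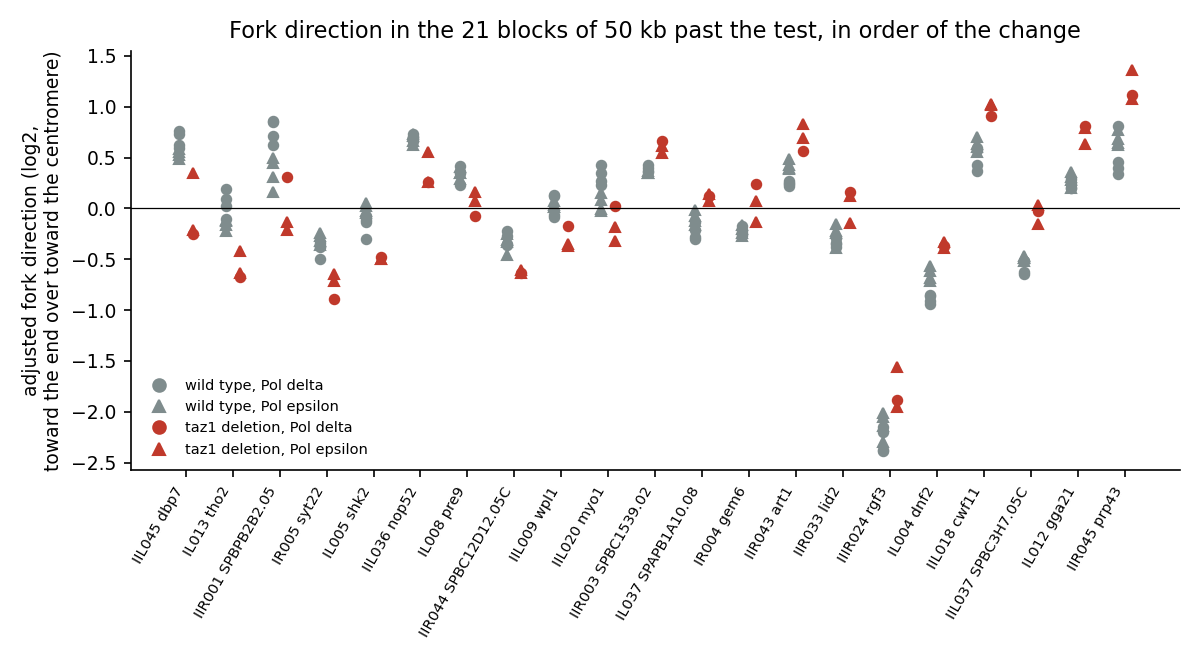
Adjusted fork direction (log2, ends of forks moving away from the centromere over ends of forks moving toward it) in the 21 blocks past the test, each named by its number from a chromosome end and the gene at its middle, grey for wild type and red for taz1 deletion. Blocks are ordered from the largest fall, -0.69, to the largest rise, 0.58, and in 19 of them the red points are clear of all grey points.

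The chromosome ends were examined because Taz1 acts at telomeres. In the block 50 to 100 kb from the right end of chromosome II (4439701 to 4489800) the adjusted direction was 0.31 for Pol delta and -0.13 and -0.21 for Pol epsilon. Wild type gave 0.63, 0.71, 0.85 and 0.86 for Pol delta and 0.31, 0.16, 0.44 and 0.49 for Pol epsilon. Each polymerase lay below its own wild type range, and direction fell by 0.49 (SE 0.08, adjusted p 0.0043), that is, more ends came from forks leaving the chromosome end. This block was also the only one of 249 past the threshold in both polymerases when direction was scaled to polarity, a test that called 6 blocks for Pol delta (2.41%) and 7 for Pol epsilon (2.81%), 5 of which fell (2.01%). The Pol delta count was 106 without taz1 deletion replicate 1 and 0 without replicate 2, and the Pol epsilon count was 0 without taz1 deletion replicate 1. Scaled values were 0.41 and 0.36 for Pol delta, against 0.63 to 0.93 in wild type (change -0.40, SE 0.08, adjusted p 0.030). For Pol epsilon they were -0.28 and -0.32 against 0.13 to 0.45 (change -0.58, SE 0.08, adjusted p 0.0080). The Pol delta call was lost in 9 alternatives, including the one without taz1 deletion replicate 2, with changes from -0.41 to -0.27. The Pol epsilon call was lost without taz1 deletion replicate 1 (change -0.60, adjusted p 0.11) and without wild type 34 °C replicate 2 (change -0.56, adjusted p 0.081).

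At the other 3 ends the adjusted change was -0.33 (SE 0.16, adjusted p 0.40) at the right of chromosome I, -0.24 (SE 0.13, adjusted p 0.47) at its left and -0.08 (SE 0.12, adjusted p 0.88) at the left of chromosome II. All 8 scaled changes of the 4 end blocks, 1 per polymerase, lay below 0, against 57 of 249 blocks (22.9%) with both polymerases below 0. These shares are not alike: direction was above 0 at the 4 end blocks in every wild type library, and the 249 include blocks of both signs. The slope of block direction on the mean of the 24 libraries was 0.02 to 0.37 in taz1 deletion and 0.80 to 1.07 in wild type. The part of a weak signal left after scaling was not tested. With all libraries, the 3 blocks other than the right end of chromosome II did not pass. The adjusted changes at both ends of chromosome I rested on single libraries. Without taz1 deletion Pol epsilon replicate 1 they were -0.50 on the right and -0.35 on the left. Without replicate 2 they were -0.16 and -0.13. Each of these fits holds 1 taz1 deletion library per polymerase, so its p-values rest on wild type scatter alone and are not given.

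Of all blocks, the last one of chromosome II had the largest increase of total ends, both strands summed, by the mean of both polymerases, but did not pass. The last 50 kb of the assembled chromosome (4489801 to 4539900) held 3.24 to 4.16 times the median block in the taz1 deletion libraries and 1.39 to 2.87 times in wild type. The change was 0.91 for Pol delta (SE 0.22, adjusted p 0.12) and 0.65 for Pol epsilon (SE 0.22, adjusted p 0.053; edgeR). The difference began at 4489801. From 4495801 to 4501800 the taz1 deletion libraries held 2.70 to 3.23 times the median bin and wild type 0.78 to 1.13, whereas in the 6 kb before 4489801 the ratio of means was 0.94. Sequence shared with other chromosome ends began at the same place. Of all 50-base words, 94.9% from 4495801 to 4501800 also occurred in another end, against 0 to 9.30% in each stretch of 6 kb before 4489801. From 4531801 to 4537800, with 13.6% of shared words, the ratio was 1.07. The deposited taz1 deletion values cover this end but stop 50 kb short of the other ends of chromosomes I and II that share the sequence, whereas those of wild type cover all of them. The part of this coverage in the result was not tested.

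**Figure D5:**
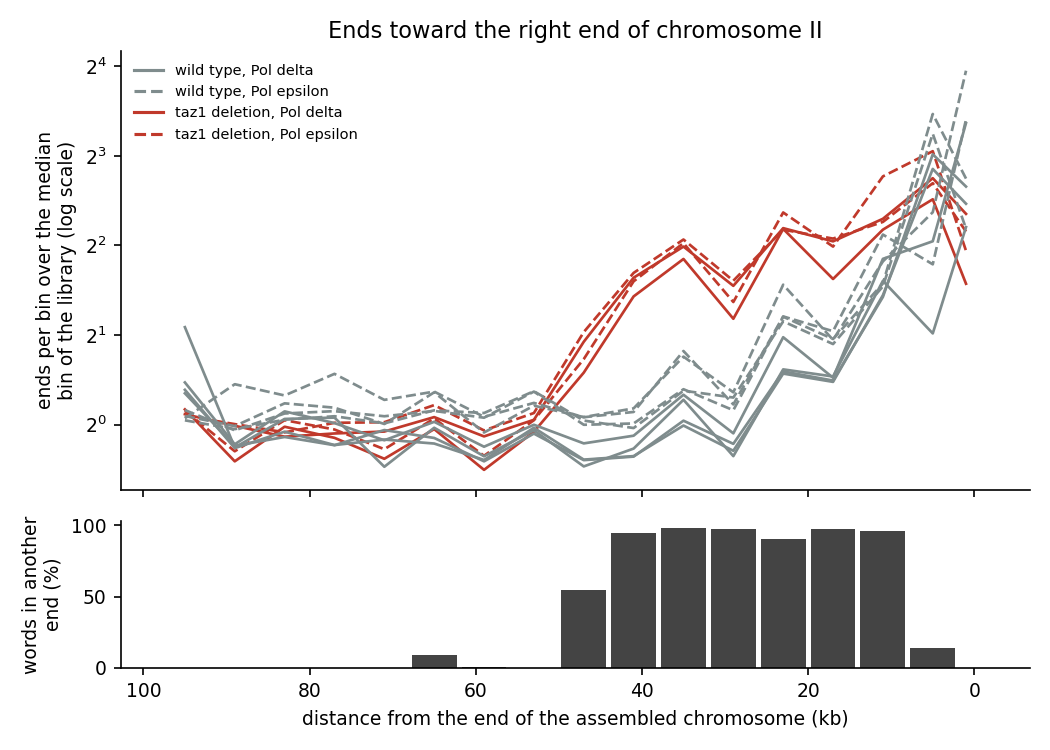
Ends per bin relative to the median bin of each library (log scale) in stretches of 6 kb toward the right end of chromosome II (top), and the percentage of 50-base words of each stretch that also occur in another chromosome end (bottom). Red and grey lines run together up to 50 kb from the end and separate where the shared sequence starts, from 1.96 times higher in taz1 deletion at 4489801 to 3.21 times in the next stretch.

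Elsewhere total ends fell in taz1 deletion at 34 blocks for Pol epsilon (13.7%) and rose at 18 (7.23%), while 0 blocks passed for Pol delta (40 at an unadjusted p of 0.05, 16 by DESeq2). Without taz1 deletion Pol epsilon replicate 1, 0 blocks passed for Pol epsilon, and without replicate 2, 21 did. The count was 32 without wild type 25 °C replicate 1 and 27 without wild type 34 °C replicate 2. The Pol delta change had the opposite sign in 50 of the 52 Pol epsilon blocks, and the difference between the polymerases passed in 72 blocks (28.9%). In the other 2 blocks both changes were below 0. One, at 3079201 to 3129000 on chromosome I, holds the deleted taz1 gene, and its Pol epsilon ends fell by 0.20 (SE 0.06, adjusted p 0.026; Pol delta -0.04). At the other, 3389701 to 3439800 on chromosome II, Pol epsilon ends fell by 0.13 (SE 0.04, adjusted p 0.035). Across blocks the log2 ratio of Pol delta to Pol epsilon ends had an SD of 0.18 in wild type and 0.04 in taz1 deletion.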

How the data were processed

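Pu-seq libraries of 12 samples were analysed, 4 of taz1 deletion and 8 of wild type, with 24 others of the study used to place sites and scale steps. The authors deposited counts of fragment ends per 300 bp bin and strand, not normalised. Reads were aligned with Bowtie2, per the submitters' processing notes; its version and settings and the build it used were not given in the sources used here. Deposited counts of taz1 deletion start 50 kb inside each chromosome, and only the 41073 bins shared by all files were used, of 41908.

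Bins were set on the RefSeq assembly ASM294v3. On counts, Pol delta and Pol epsilon were tested separately with edgeR 4.0.16 (quasi-likelihood, library as a block). On scaled log2 values they were tested separately with limma 3.58.1. The calls given for the adjusted step and the adjusted direction come from a limma contrast on the mean of both polymerases. Taz1 deletion was set against the mean of both wild type temperatures in each. Before log2, 0.5 was added to sums. DESeq2 1.42.0 was an alternative. P-values were adjusted (Benjamini-Hochberg) over all sites or blocks at 0.05. R 4.3.3, Python 3.11.15, numpy 2.4.6, pandas 2.3.3, scipy 1.17.1 and matplotlib 3.10.9 were used, and the fits were tested on simulated data. Limits from counts of 0 cover counting error only.

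Sites are named by the nearest gene. Named were the 12 largest falls and rises among sites past the scaled test in either polymerase with 1 direction in both (the 5 largest where fewer passed), blocks of total ends by the same rule, the end blocks and a list of fixed loci. Members, lists and sites were chosen with earlier results of these data known. The adjusted measures, the equal weights, the split by Rif1 consensus, the GGTTAC pairs and the stretches at the right end of chromosome II were chosen after seeing the data. Alternatives were other scales, flanks, block sizes, site sets, tools, each wild type temperature alone, a replicate block and leaving out each library. Replicate numbers were not used to pair the samples in the main fits, and the labels do not say whether they mark a batch. The values of 1 site are not reported here.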

Additional observations from a re-analysis of the deposited data

How the results depend on the processing

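Over 36 results and 537 alternatives, 415 were kept. For single sites and blocks this means the same call, and for counts a value within 1.5 times. For list medians it means a shift below the SD of the values in single taz1 deletion libraries. Beyond these limits 75 counts or medians moved, and 16 calls were lost and 31 gained. A reversed sign was looked for at single sites and blocks only, with 0 found. The median of the consensus sites did change sign, down to -0.08. The cause was not tested in any of these. The unscaled step passed at 250 sites for Pol delta by DESeq2 and at 211 for Pol epsilon against wild type 25 °C alone. The scaled Pol delta step passed at 0 sites with the median absolute step as scale, 34 against wild type 25 °C, 72 against 34 °C, 0 without wild type 25 °C replicate 2 of both polymerases, and 0 in the 6 libraries of the polymerase alone. Total ends of Pol delta passed in 16 blocks by DESeq2, 2 blocks of 20 kb, 1 against wild type 25 °C and 3 without its replicate 2. Those of Pol epsilon passed in 87 by DESeq2, 1 against 34 °C and 0 in the 6 libraries alone. Scaled direction of Pol delta passed in 94 blocks without scaling, 12 of 20 kb, 0 against 25 °C, 0 without its replicate 2 and 0 in the 6 libraries alone. That of Pol epsilon passed in 74 without scaling, 1 of 20 kb, 4 against 25 °C and 2 against 34 °C. The adjusted step passed at 19 sites with equal weights and 1 without wild type 25 °C replicate 2, and the adjusted direction in 40 blocks with equal weights and 39 of 20 kb. The median of the 27 sites without a consensus was 0.23 with 5 bins on each side.

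With the replicate number as a block the counts were 95 for the scaled Pol delta step, 81 for total ends of Pol epsilon, 1 and 3 for scaled direction of Pol delta and Pol epsilon, and 1 for the adjusted step. For the right end block of chromosome II (50 to 100 kb) the Pol delta call was lost under this block (-0.40, adjusted p 0.061). Replicate deviations correlated between groups at -0.35 to 0.72. Between taz1 deletion and wild type 34 °C the values were 0.72 for the Pol epsilon step and 0.24 for the Pol delta step. For total ends they were 0.58 for Pol delta and 0.57 for Pol epsilon. Whether the replicate number marks a batch was not tested. That Pol delta change was also not past the threshold against wild type 25 °C alone (-0.27), without wild type 25 °C replicate 2 (-0.39) or in the 6 libraries alone (-0.40).

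Leaving out 1 library at a time gave 236 to 401 sites for the unscaled step of Pol delta and 159 to 320 for Pol epsilon, the lowest without taz1 deletion Pol delta replicate 2 and Pol epsilon replicate 1. The scaled step gave 0 to 337 for Pol delta (0 without wild type 34 °C replicate 2, 28 without its replicate 1, 35 without wild type 25 °C replicate 2) and 0 for Pol epsilon. Total ends gave 0 to 3 blocks for Pol delta and 0 to 64 for Pol epsilon (21 without taz1 deletion replicate 2, 32 without wild type 25 °C replicate 1, 27 without wild type 34 °C replicate 2). Scaled direction gave 0 to 106 and 0 to 6, with 106 without taz1 deletion Pol delta replicate 1. The adjusted step gave 0 to 102 sites (102 and 41 without taz1 deletion Pol epsilon replicates 1 and 2), and the adjusted direction 14 to 73 blocks (73 and 54). Adjusted fits without a taz1 deletion Pol epsilon replicate hold 1 taz1 deletion library per polymerase, so their counts rest on wild type scatter alone. The median of the 27 sites was 0.36 to 0.51. At the right end block, scaled changes were -0.43 to -0.38 for Pol delta and -0.60 to -0.56 for Pol epsilon.

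Only 3 taz1 deletion libraries carry the adjusted values, with 1 for Pol delta, and their lower slopes enlarge noise along with signal. Taz1 deletion Pol delta replicate 2, which they leave out, had fewer ends in total than every wild type Pol delta library. Its median of 215 ends per bin lay within the wild type Pol delta range of 208 to 480.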

Other observations

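In the stretch of chromosome II from 2116501 to 2131500, 50 bins in the mating-type region, taz1 deletion replicate 1 held 3.25 times the median bin for Pol delta and 3.16 for Pol epsilon. Replicate 2 held 1.12 and 1.05, and the wild type libraries held 0.87 to 1.39, so the 2 replicates of taz1 deletion differed there in both polymerases. The stretch was chosen after its values were seen.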
